A study of Solanum virginianum with 24 samples.

Results

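Lipid transfer proteins and a proline-rich cell wall protein were followed in eggplant fruit through 3 genes of the array, TSW12, LE16 and TPRP-F1. They were taken as every probe set that carries one of these symbols in the platform annotation, which gave 1 probe set for each gene, 3 in all of the 10038 probe sets tested and of the 909 that carry a symbol. The choice was made with the differences of each stage from anthesis known, so the values of the 3 genes in those comparisons are a description and no test is given for them. The fruit came from cultivar PPL, grown in a glasshouse and pollinated by hand, and was sampled at anthesis (0 dpa, for days post anthesis) and again at 5, 10, 20 and 50 dpa. The series title names Solanum melongena, although the sample records give Solanum virginianum as the organism. Every stage had 3 arrays, called biological replicates in the labels, and no genotype or treatment other than age separated the stages. RNA of the whole fruit was hybridised to a tomato array, so eggplant transcripts were read with probes designed for tomato.

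Plant lipid transfer proteins are small secreted proteins held together by conserved disulfide bonds, with a hydrophobic cavity that binds fatty acids and other lipids. They are abundant in epidermal tissue and are linked to the deposition of cutin and wax and to defence. In tomato, TSW12 was described as a lipid transfer protein gene induced by salt and LE16 as one induced by drought and abscisic acid. TPRP-F1 was described in tomato as the gene of a proline-rich protein of young fruit. Proline-rich proteins are structural proteins of the plant cell wall.

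The 3 genes followed 3 different courses. TPRP-F1 stood above anthesis at 5, 10 and 20 dpa and 6.09-fold below it at 50 dpa. TSW12 stood below anthesis at every later stage, by 1.43-fold at 5 dpa and 2.71-fold at 50 dpa. LE16 stayed nearest to its anthesis value, and its largest difference was 1.43-fold higher at 50 dpa. Differences are given below on the log2 scale, stage minus 0 dpa, with limma's standard error after ± and 3 arrays on each side.

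The 3 arrays of 0 dpa were normalised anew with each later stage, which gave 4 sets of 6 columns, and the deposited values were centred so that each probe set has a median of 0 in each set. No signal level is therefore left, and the genes cannot be ranked by abundance or checked for detection. Where the arrays of a stage and of 0 dpa do not overlap, they lie on the 2 sides of 0 by construction. A difference from 0 dpa is unaffected by this centring. Replicate 2 of 5 dpa had 50 probe sets more than 1 log2 unit below both other replicates, against at most 3 on any other array. Without that array the 5 dpa differences were 0.29 for TPRP-F1, -0.54 for TSW12 and -0.25 for LE16. Signs of RNA quality also moved with stage. The 25S ribosomal RNA control differed from 0 dpa by -0.71 ± 0.213 at 5 dpa, -1.81 ± 0.267 at 10 dpa, 0.01 ± 0.099 at 20 dpa and 1.04 ± 0.088 at 50 dpa. The 5' signal of the actin control gained 1.09, 0.37, 0.52 and 0.39 log2 units on its 3' signal at these 4 stages, that of GAPDH gained 0.77, 0.69, 0.95 and 0.32, and that of ubiquitin shifted by 0.20, -0.09, 0.26 and 0.16. The part of these shifts in the results for TPRP-F1, TSW12 and LE16 was not tested. Over all probe sets the median difference lay between -0.025 and 0.02 at the 4 stages. The authors' quantile normalisation inside each set holds it near 0, so it cannot show whether a shift common to all transcripts took place.

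**Figure D1:**
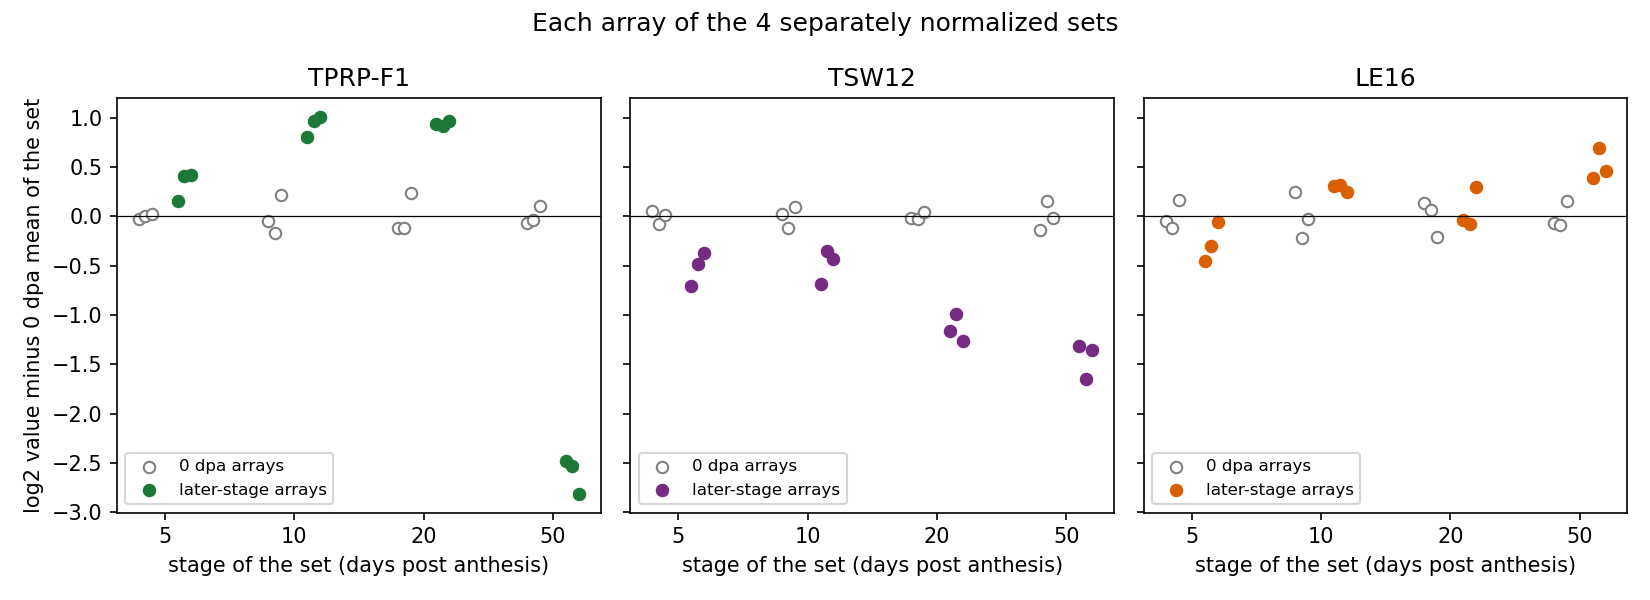
Log2 value of each array minus the mean of the 3 arrays of 0 dpa in its set (vertical axis), by stage (horizontal axis, days post anthesis), with open points for 0 dpa and filled points for the later stage. TPRP-F1 lies above 0 dpa at 10 and 20 dpa and at -2.48 to -2.81 at 50 dpa, TSW12 lies below 0 dpa throughout, and LE16 overlaps with 0 dpa at 5, 10 and 20 dpa.

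TSW12, the lipid transfer protein gene first found under salt stress (probe set Les.4333.1.S1_at), had its highest value at anthesis. Relative to the 0 dpa mean, the 5 dpa arrays read -0.70, -0.48 and -0.37 in replicates 1, 2 and 3, and the 0 dpa arrays of that set 0.06, -0.08 and 0.02. The 10 dpa arrays read -0.68, -0.35 and -0.43, against 0.03, -0.12 and 0.10 at 0 dpa. All arrays of both stages lay below all arrays of 0 dpa, with differences of -0.52 ± 0.104 at 5 dpa and -0.49 ± 0.107 at 10 dpa.

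At 20 dpa the 3 arrays read -1.16, -0.99 and -1.26, and at 50 dpa they read -1.31, -1.65 and -1.35. The 0 dpa arrays of these sets stayed between -0.03 and 0.05 and between -0.14 and 0.16. TSW12 was thus 2.20-fold below anthesis at 20 dpa (-1.14 ± 0.091) and 2.71-fold below it at 50 dpa (-1.44 ± 0.121), again without overlap. The highest 20 dpa array, at -0.99, lay below the lowest of 5 and 10 dpa, at -0.70, and the 50 dpa arrays, from -1.31 downward, lay just below the lowest of 20 dpa, at -1.26. These readings come from separately normalised sets, and the steps between stages were not tested. Changes of this size or larger were seen in 4.26% of the probe sets at 20 dpa and in 4.38% at 50 dpa.

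LE16, the lipid transfer protein gene known from drought-stressed tomato (probe set Les.1389.1.S1_at), did not share this course. The 5 dpa arrays read -0.45, -0.30 and -0.06 and the 0 dpa arrays of the set -0.05, -0.12 and 0.17. Replicate 3 of 5 dpa lay inside the range of anthesis, and the difference was -0.27 ± 0.124. At 10 dpa the arrays read 0.31, 0.32 and 0.25, and replicate 1 of 0 dpa reached 0.25 as well. The difference of 0.29 ± 0.118 was of the opposite sign to that at 5 dpa. With single arrays left out it lay between 0.18 (without 0 dpa replicate 2) and 0.42 (without 0 dpa replicate 1), and the 5 dpa difference between -0.38 and -0.18.

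At 20 dpa the arrays of LE16 read -0.04, -0.08 and 0.30 and were spread over the range of the 0 dpa arrays, -0.21 to 0.14. The difference of 0.06 ± 0.132 turned to -0.05 without 0 dpa replicate 3 and to -0.06 without 20 dpa replicate 3, so no direction can be given for that stage. Only at 50 dpa did the arrays of LE16 separate from anthesis, at 0.39, 0.69 and 0.46 against -0.07, -0.09 and 0.16. Ripe fruit thus stood 1.43-fold above anthesis (0.51 ± 0.112), and 24.1% of all probe sets differed at least as much.

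TPRP-F1, the proline-rich protein gene (probe set Les.3273.1.S1_at), was higher than at anthesis throughout fruit growth. The 5 dpa arrays read 0.16, 0.41 and 0.42, and the 0 dpa arrays of the set stayed between -0.03 and 0.03. This gave 0.33 ± 0.095, a small difference that 31.8% of the probe sets matched or passed. At 10 dpa the arrays read 0.81, 0.97 and 1.01 (0.93 ± 0.112) and at 20 dpa 0.94, 0.92 and 0.97 (0.94 ± 0.110). The stages stood 1.91-fold and 1.92-fold above anthesis, and their arrays did not overlap with 0 dpa, whose highest readings were 0.22 and 0.24.

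In ripe fruit TPRP-F1 lay far below anthesis. The 50 dpa arrays read -2.48, -2.53 and -2.81, while the 0 dpa arrays of that set stayed between -0.07 and 0.11. The difference of -2.61 ± 0.108, 6.09-fold, was the 65th deepest among the 10038 probe sets. The distance between the 20 dpa and the 50 dpa difference was -3.55, or 11.7-fold, which 0.259% of the probe sets reached. That step was set across 2 separately normalised sets that share their 0 dpa arrays, and it was not tested. In RNA of whole fruit, fewer cells of a type and less of the transcript per cell cannot be told apart.

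**Figure D2:**
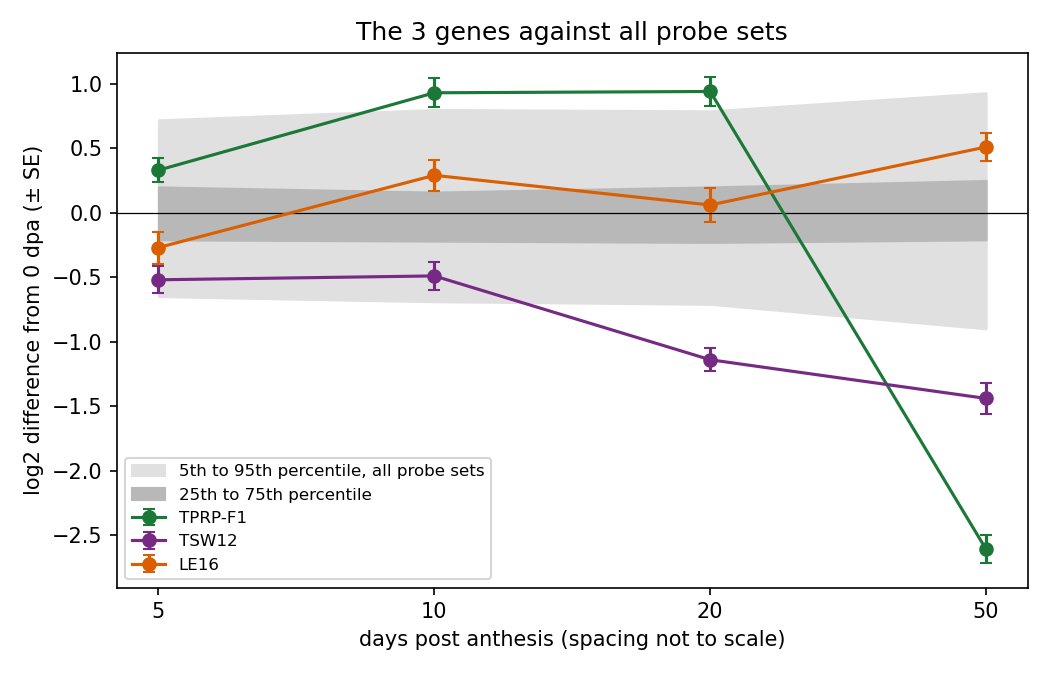
Log2 difference from 0 dpa (vertical axis, with limma standard errors) by stage (horizontal axis, days post anthesis) for the 3 genes, with grey bands for the 5th to 95th and 25th to 75th percentiles of all probe sets. TPRP-F1 passes from 0.94 at 20 dpa to -2.61 at 50 dpa, TSW12 declines to -1.44, and LE16 ends at 0.51.

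Counted over the genes, the arrays of a stage did not overlap with 0 dpa for 2 of 3 genes at 5 dpa, where 47.0% of all probe sets showed the same. The count was 2 of 3 at 10 dpa against 46.8% of all probe sets, 2 of 3 at 20 dpa against 49.6%, and 3 of 3 at 50 dpa against 51.0%. At the first 3 stages TPRP-F1 was the higher and TSW12 the lower one, and at 50 dpa LE16 was higher and both others lower. Because the genes were chosen on these comparisons, nothing is read from these counts. The difference between the highest and the lowest of the 4 stages was 3.55 for TPRP-F1, 0.95 for TSW12 and 0.78 for LE16, against a median of 0.45 over all probe sets.

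The renewed normalisation of the same 3 anthesis arrays shows how far each gene's single readings depended on it. The deviation of a given 0 dpa array from the 0 dpa mean moved by at most 0.21 between the 4 sets for TPRP-F1, by 0.29 for TSW12 and by 0.38 for LE16, with a median of 0.15 over all probe sets. Replicate 3 was the highest of the 3 anthesis arrays in all 4 sets for TPRP-F1. For LE16 the highest was replicate 1 in 2 sets and replicate 3 in 2 sets. For TSW12 it was replicate 1 in 1 set, replicate 2 in 1 set and replicate 3 in 2 sets. A movement as wide as that of LE16 was seen in 2.57% of the probe sets. It describes single arrays and is no measure of the error of a stage difference.

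**Figure D3:**
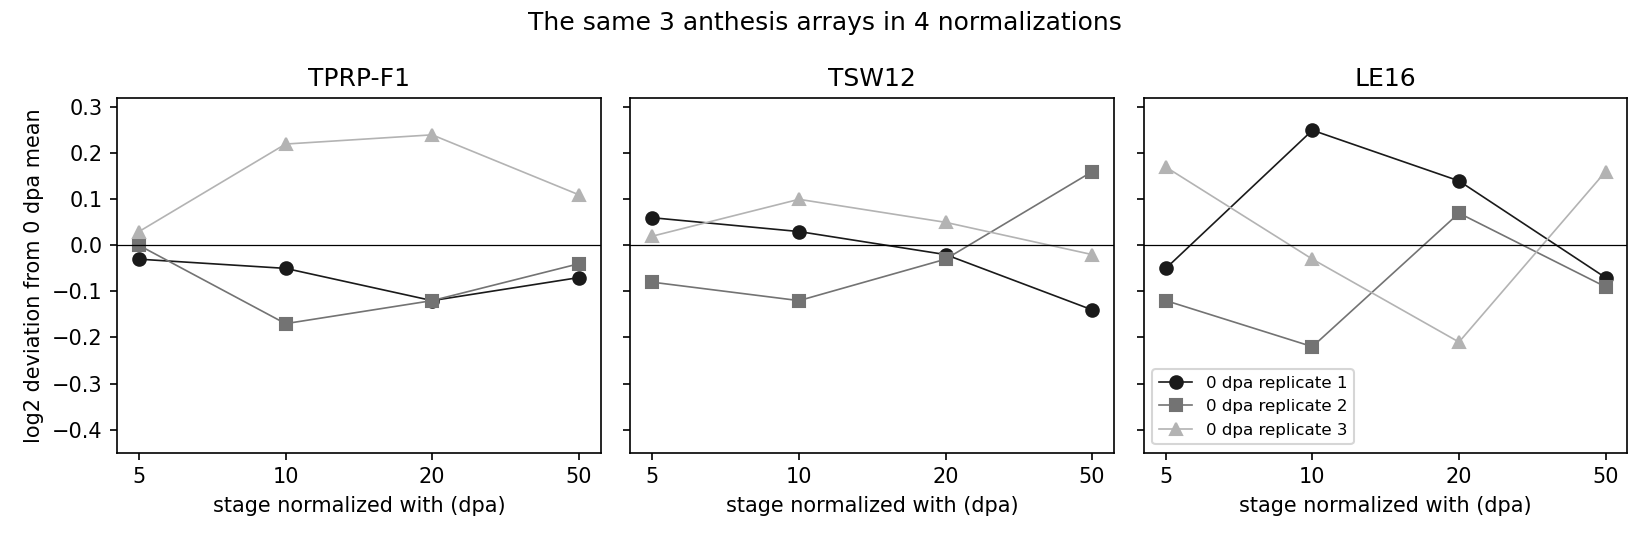
Log2 deviation of each 0 dpa array from the mean of the 3 (vertical axis) in the 4 normalisations, named by the stage they were normalised with (horizontal axis, dpa). TPRP-F1 replicate 3 stays highest throughout, and the highest array changes for TSW12 and for LE16, whose replicate 3 spans -0.21 to 0.17.

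Other genes with a similar course were looked for among 699 probe sets of 623 genes with a symbol, by the root-mean-square distance between the 4 differences from 0 dpa. All of these comparisons share the anthesis arrays, and the distances and correlations are descriptions. For TPRP-F1 the 3 nearest were XTH16, a xyloglucan endotransglucosylase/hydrolase gene (distance 0.400), CAT2, a catalase gene (0.466), and CEL8, an endo-beta-1,4-glucanase gene (0.593). In the nearest probe set each stood above 0 dpa at 5, 10 and 20 dpa, CAT2 by only 0.15 at 10 dpa. At 50 dpa they stood below it, at -2.22, -2.56 and -1.64. Pearson's r with TPRP-F1 over the 12 arrays of the later stages was 0.966, 0.971 and 0.989. These are 3 replicates at each of 4 stages and not 12 separate points of a course. The low 50 dpa readings weigh most in the r of TPRP-F1. XTH16 has 3 probe sets, and the others were at distances of 0.605 and 1.299, the last with -0.13 at 20 dpa and only -0.28 at 50 dpa.

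For TSW12 the nearest was LAPA1, a leucine aminopeptidase gene of the wound response, with differences of -0.35, -0.56, -1.21 and -1.39 and a distance of 0.099 (r = 0.901, 12 arrays). INT4 (0.288) and TIP (0.294) followed, and a second probe set of INT4 lay at 0.864. TIP went to -1.91 at 50 dpa, lower than TSW12.

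LE16 was nearest to TAS14, a dehydrin gene known in tomato for induction by salt and abscisic acid, at a distance of 0.082 (r = 0.925, 12 arrays). TAS14 had differences of -0.12, 0.25, 0.02 and 0.47. MCA1, a metacaspase gene (0.122), and PR-P2, a pathogenesis-related protein gene (0.124), came next. Small differences are common, and 67 of the 699 probe sets lay within 0.25 of LE16, against 1 for TSW12 and 0 for TPRP-F1. Among the members themselves TSW12 and LE16, both lipid transfer protein genes, were 1.22 apart, TSW12 and TPRP-F1 1.45, and LE16 and TPRP-F1 1.68.

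**Figure D4:**
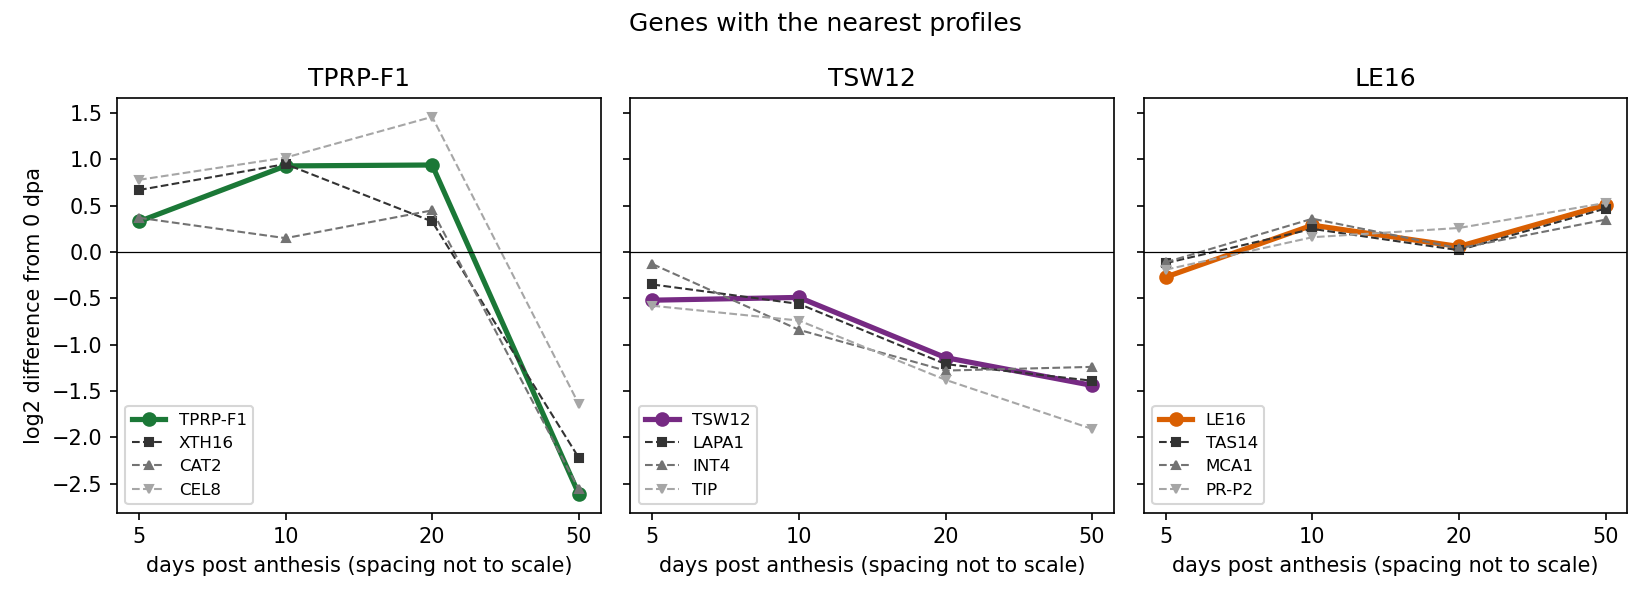
Log2 difference from 0 dpa (vertical axis) by stage (horizontal axis, days post anthesis) for each gene (thick line) and the 3 genes nearest to it by root-mean-square distance (dashed lines). XTH16, CAT2 and CEL8 share the drop at 50 dpa with TPRP-F1, and LAPA1 ends at -1.39 where TSW12 ends at -1.44.

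Other genes listed for a related function, which the rule for the 3 genes did not use, were tested with limma against 0 dpa. Adjusted p values are over all 10038 probe sets. The symbols ext1, ltpg1, TPx1 and H1 were matched by their letters only, and their roles could not be checked. Their lists were drawn up with earlier results of these data known and are not independent evidence of a direction. Over all probe sets 15.7% passed the threshold of 0.05 as higher and 16.4% as lower at 5 dpa, 16.0% and 19.5% at 10 dpa, 18.0% and 20.2% at 20 dpa, and 20.7% and 19.6% at 50 dpa. Of 72 listed symbols, 11 genes with 12 probe sets were measured. Of these probe sets 3 fell and 0 rose at 5 dpa, 4 fell and 1 rose at 10 dpa, 4 fell and 2 rose at 20 dpa, and 6 fell and 5 rose at 50 dpa. Their medians lay between -0.16 and -0.08.

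In the cuticle, wax and lipid transfer list 2 genes were measured from 25 listed symbols. Fad7, a plastid omega-3 fatty acid desaturase gene, fell at each stage, with differences of -0.39 ± 0.078 at 5 dpa (adjusted p = 0.00633), -0.55 ± 0.093 at 10 dpa, -1.26 ± 0.072 at 20 dpa (adjusted p = 3.92e-06) and -2.01 ± 0.168 at 50 dpa (adjusted p = 3.99e-05). TSW12 stood at -0.52, -0.49, -1.14 and -1.44 at the same stages. Fad7 is no lipid transfer protein gene, and ltpg1 was the only measured symbol of the list that names one. It had -0.30, 0.08 and -0.28 at 5, 10 and 20 dpa without passing, and fell at 50 dpa (-0.43 ± 0.086, adjusted p = 0.00453). At 20 dpa it passed without 20 dpa replicate 2 (adjusted p = 0.034, range over alternatives 0.034 to 0.155).

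In the list of structural wall proteins 3 genes were measured from 24 listed symbols, and limma called 0 of these genes at 5 and at 20 dpa. Without adjustment 0 of them had a p under 0.05 at these stages, and the methods' t-test called 0. AGP-1, an arabinogalactan protein gene, rose at 10 dpa (1.05 ± 0.194, adjusted p = 0.00306), had -0.37 at 20 dpa (adjusted p = 0.112) and fell at 50 dpa (-0.69 ± 0.177, adjusted p = 0.0155). TPRP-F1 stood at 0.93, 0.94 and -2.61 at the same stages. Dif54 rose at 50 dpa (0.50 ± 0.098, adjusted p = 0.00402), as did ext1 (0.33 ± 0.110, adjusted p = 0.0431). AGP-1 did not pass in the t-test at 10 dpa (adjusted p = 0.0605, range over alternatives 0.00222 to 0.0605), nor at 50 dpa in the t-test or without 0 dpa replicate 1 (0.00677 to 0.0997), and it passed at 20 dpa without 20 dpa replicate 1 (0.0254 to 0.305). The call of ext1 ended in the t-test, without any one of the 0 dpa arrays, and without replicate 2 or 3 of 50 dpa (range 0.00946 to 0.128).

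In the list of genes induced by drought, salt or abscisic acid 6 genes were measured from 23 listed symbols, with 7 probe sets. AREB1, a bZIP factor gene of abscisic acid signalling, fell at all 4 stages, from -0.58 ± 0.097 at 5 dpa to -1.04 ± 0.104 at 50 dpa (adjusted p = 0.0025 and 0.000107). TAS14 had -0.12, 0.25 and 0.02 at 5, 10 and 20 dpa and rose at 50 dpa (0.47 ± 0.124, adjusted p = 0.0166), the stage at which LE16 left its anthesis range. ER5, a gene of a late-embryogenesis-abundant-like protein, rose at 20 dpa (0.42 ± 0.130, adjusted p = 0.0337) and 50 dpa (0.41 ± 0.111, adjusted p = 0.0197). TPX2 fell at 10, 20 and 50 dpa, to -0.67 ± 0.109 (adjusted p = 0.00161), and TPx1 rose at 50 dpa (0.48 ± 0.096, adjusted p = 0.00477). The 2 probe sets of H1 had -0.36 and -0.39 at 10 dpa but disagreed at 20 dpa, with -0.86 and 0.31. They also differed in sign at 5 and 50 dpa, so H1 gives no single direction. The call at -0.86 held in every alternative, and that at 0.31 (adjusted p = 0.0448) ended in 7 of them. The suffix of the first probe set marks probes that several transcripts share.

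Several of these calls depend on 1 array or on the test, and in the t-test those of TAS14 and ER5 at 50 dpa and of ER5 and TPX2 at 20 dpa ended. The t-test also ended the calls of the first H1 probe set at 5 dpa and of the second at 10 and 20 dpa. Each of these H1 calls also ended with some single arrays left out. TAS14 did not pass at 50 dpa without 0 dpa replicates 1 or 3 (range over alternatives 0.00859 to 0.0809). It passed at 10 dpa under median centring of arrays or without 0 dpa replicate 2 (0.0356 to 0.162). ER5 did not pass at 20 dpa without any one of the 0 dpa arrays or without replicate 2 or 3 of 20 dpa, nor at 50 dpa when replicate 1 or 2 of 0 dpa, or replicate 2 or 3 of 50 dpa, was left out (0.0118 to 0.134 and 0.00884 to 0.0763). TPX2 did not pass at 20 dpa without 0 dpa replicate 1 or 20 dpa replicate 2, and passed at 5 dpa without 0 dpa replicate 2 or 5 dpa replicate 2 (0.0164 to 0.0829 and 0.0449 to 0.156). With 0 dpa replicate 1 left out, 3 of the 12 probe sets passed at 20 dpa and 7 at 50 dpa.

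**Figure D5:**
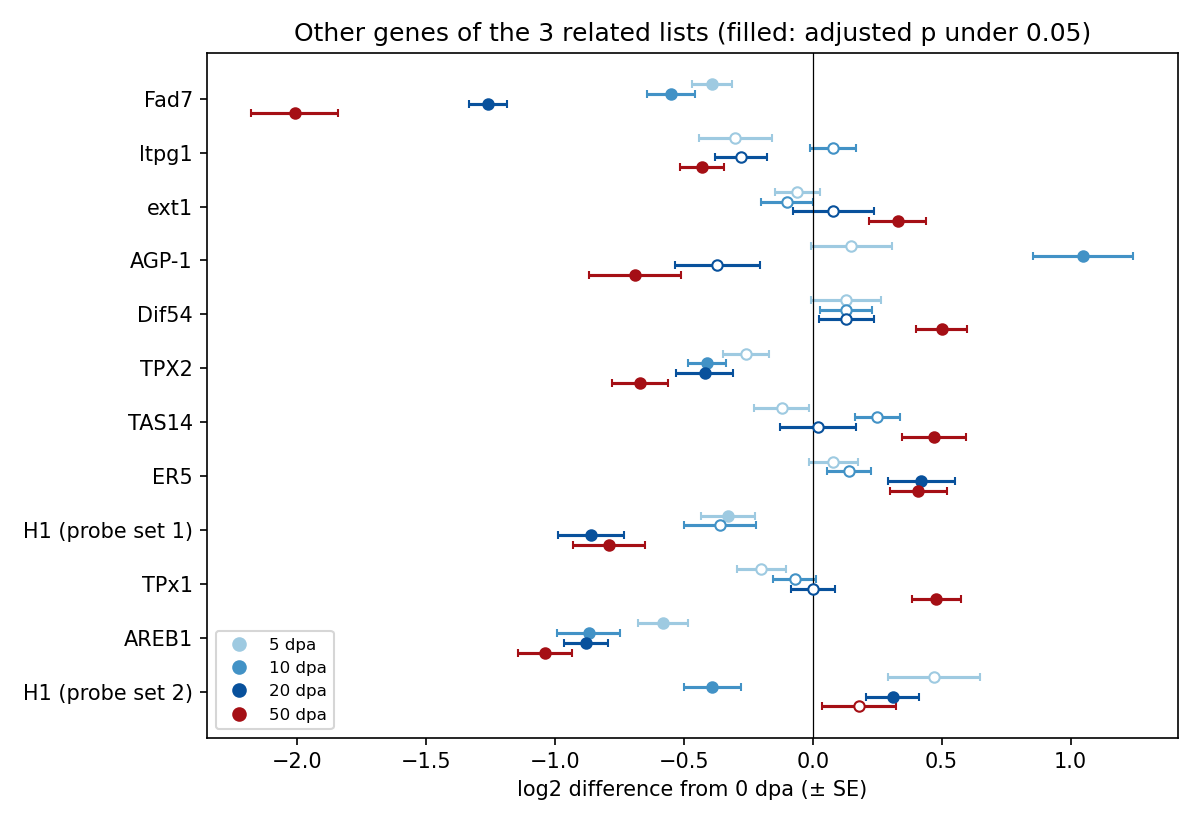
Log2 difference from 0 dpa with limma standard errors (horizontal axis) for the 12 probe sets of the related lists (vertical axis), coloured by stage and filled where the adjusted p was under 0.05. Fad7 reaches -2.01 and AREB1 -1.04 at 50 dpa, and AGP-1 stands at 1.05 at 10 dpa.

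Markers of other material that whole ovaries or fruit could hold were read as differences too, since no level is left. Of the 6 measured genes on the pollen and anther list limma called 0 at each stage, and so did the t-test. The shares of all probe sets that passed in limma are given above. Among the 6, Stig1 is a gene of the pistil and no marker of pollen or anthers. Without adjustment 1 of the 6 had a limma p under 0.05 at 20 dpa and 0 at the other stages. In simulated data with 200 of 10038 probe sets changed, limma recovered 46% of differences of 0.5 log2 units at 5 dpa and 60% at 50 dpa. In the data 3231 and 4041 probe sets passed at these stages, and the adjusted threshold is less strict when more pass. The simulated shares therefore do not carry over to the tests here. Small shifts could still be missed. PRK1 passed at 5 dpa without 5 dpa replicate 2 and LIN7 at 50 dpa without 0 dpa replicate 2. Of the seed list MAN2 alone was measured, an endo-beta-mannanase gene. Whether its signal in whole fruit came from seeds was not tested. MAN2 had 0.71 ± 0.236 at 5 dpa (adjusted p = 0.0492), a call that ended in the t-test, with controls kept in, and without replicate 2 or 3 of 0 dpa or replicate 1 or 2 of 5 dpa (range over alternatives 0.00306 to 0.202). It rose by 1.91 ± 0.339 at 10 dpa and 3.81 ± 0.265 at 20 dpa and had 0.03 at 50 dpa. Its call at 10 dpa ended in the t-test (adjusted p = 0.061, range over alternatives 2.03e-05 to 0.061), and at 50 dpa it passed without 0 dpa replicate 1 (adjusted p = 0.0455, range 0.0455 to 0.957). The part of seeds in the course of TPRP-F1, which stood above 0 dpa at 5, 10 and 20 dpa, was not tested.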

How the data were processed

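The deposited log2 values were made by the authors, per the series design text, from Affymetrix tomato GeneChip scans with RMA (background correction, quantile normalisation, median polish) in GeneSpring GX 11.5. The 24 columns hold 15 arrays, because the labels give each 0 dpa array once per later stage. In each set 100% of the 10209 probe sets had a median within 1e-05 of 0. Positive values were read as higher expression, a direction that no other file here could check. The 108 AFFX controls and 63 RPTR reporter probe sets were left out, leaving 10038. Symbols came from the platform annotation of 2007, 1 each for 909 probe sets and none for 9129. No genome was used, so no position or sequence is given. The number of arrays limits the precision.

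Tests ran inside a set, stage against 0 dpa, in limma 3.58.1 under R 4.3.3 (two-sided, lmFit followed by eBayes), with Benjamini-Hochberg adjustment over the probe sets and a threshold of 0.05. The fit was first tested on simulated data. Named genes were all members, the 3 nearest genes of each by root-mean-square distance, and all measured genes of the related lists. Members and lists were chosen with earlier results of these data known. Alternatives were the unpaired t-test of the design text, median centring of arrays, controls kept in, the replicate number as a block, and each array left out. Filters on signal and slide or scan blocks could not be applied to these values. Nothing says whether replicates came from separate plants, so p values measure the spread between these arrays. Plots were drawn with matplotlib 3.10.9.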

Additional observations from a re-analysis of the deposited data

Results flagged for a closer look

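TPRP-F1 had all arrays above 0 dpa at 5, 10 and 20 dpa (0.33, 0.93 and 0.94 on the log2 scale) and all arrays below it at 50 dpa (-2.61). The difference between the stages was not tested, since they were normalised separately and share the 0 dpa arrays, and the gene was chosen with these values known.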

How the results depend on the processing

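Each of the 96 values of TPRP-F1, TSW12 and LE16 under median centring, the replicate block or with an array left out moved by less than 1 replicate SD. For most of them this was fixed in advance. The block cannot change a difference when each replicate number stands once on each side. Leaving out 1 of 3 arrays cannot move a group mean by 1 SD of that group. The limit of 1 SD is therefore no sign of stability. The 2 values that turned sign were both LE16 at 20 dpa. With single arrays left out, TPRP-F1 lay between -2.67 and -2.51 at 50 dpa and TSW12 between -1.51 and -1.33. In the methods' t-test 2129 probe sets passed at 5 dpa instead of 3231, and 3, 3 and 7 of the 12 related probe sets at 10, 20 and 50 dpa instead of 5, 6 and 11. These counts were 3 to 6 at 20 dpa and 7 to 11 at 50 dpa with single arrays left out, lowest in both without 0 dpa replicate 1. The cause was not tested. Deviations of same-numbered arrays correlated at -0.017 to 0.102, and those of differently numbered arrays at -0.11 to 0.0511. Whether the replicate numbers pair the arrays cannot be told from these values. With the replicate number as a block 3077, 3418, 3728 and 3831 probe sets passed at the 4 stages and 4, 5, 5 and 10 related ones. The block ended the calls of ER5 at 20 dpa, ext1 at 50 dpa and 1 probe set of H1 at 10 and 20 dpa, and AGP-1 at 20 dpa and H1 at 5 and 10 dpa passed with it. By Pearson's r, 1 of the 3 genes nearest to LE16 was the same as by distance, 0 for TSW12 and 2 for TPRP-F1.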
